A study of Arabidopsis thaliana with 12 samples.

Results

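The genes described here are the MIR loci of the long-known microRNA family numbers in Arabidopsis thaliana, that is, the annotated precursor genes from which microRNAs are cut. A locus was taken by its description in the authors' expression table, and the rule used no expression value. The description had to name a MIR gene from MIR156 to MIR172, MIR319, from MIR390 to MIR399, MIR403 or MIR408. However, that table lists no gene at 0 in every library, so loci at 0 in every WT library are in it only through dcl1. The rule took 78 loci of 29 family numbers, out of 24730 genes in the table, and left 50 MIR loci with other numbers. It goes by number alone, so it also holds MIR161 and MIR163, which are known as evolutionarily young loci. The study compared a dcl1 mutant in the Col-0 background with Col-0 wild type (WT), with 3 biological replicates per genotype, grown without any treatment. The labels give leaf and an age of 20 days, whereas the protocol and the design text speak of seedlings and the design text of a 3-week stage. The dcl1 allele is not named. Per the labels' protocols, RNA was selected with oligo(dT) beads, fragmented and partly immunoprecipitated for N6-methyladenosine (m6A), a base modification of messenger RNA. The levels below come from the 6 input libraries that were not immunoprecipitated.

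A microRNA gene is transcribed by RNA polymerase II into a capped and polyadenylated primary transcript that folds into a hairpin. DCL1, the nuclear Dicer-like enzyme, works with HYL1 and SE to cut the mature microRNA duplex out of that hairpin, after which AGO1 uses one strand to find and silence messenger RNAs. Poly(A) selection keeps such primary transcripts and not the mature microRNA, which the libraries did not measure. Where a MIR locus overlaps another gene, reads over it may belong to either. Each family number groups loci whose mature microRNAs are alike in sequence. Many of these families act on transcription factors of development, and others act on nutrient uptake, copper proteins, the small RNA machinery itself or other genes.

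The values are FPKM, fragments scaled by gene length and by the library's total. Levels of different loci, and shares of a family's level, are compared below as listed. Whether the scaling holds between loci of very different annotated length was not tested. Most loci were short: 62 of the 78 had under 200 annotated bases, 8 had 200 or more but under 400, and 8 had at least 400, with a median of 124.5 and extremes of 64 and 2555 bases. The files give no read counts. In each library, however, 1 value above 0 was the most frequent over all genes, and is called its step. It was 0.153 to 0.179 FPKM in dcl1 libraries and 0.137 to 0.172 FPKM in WT libraries. Between 7 and 16 genes per library had that value. Some values lay below it, as at MIR159a in WT replicate 1 (0.0148 FPKM). Of 244 member values above 0 with under 5000 covered bases, 234 (95.9%) were within 0.05 of a whole number of bases once divided by that step and multiplied by the annotated length. A step is read here as a mean coverage of 1 read over the locus, an inference from the values and not a statement of the authors. On that reading, every WT library had a mean coverage under 3 at 55 of the 78 loci, and every dcl1 library had at least 3 at 42 loci. Both held at 21 loci, so many WT values rest on few reads.

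DCL1 (AT1G01040) itself averaged 0.547 ± 0.124 FPKM in dcl1 and 5.20 ± 0.739 FPKM in WT (SD, n = 3 each; log2 difference -2.00, SE 0.12, limma adjusted p = 1.07e-04). Sums over 4 leaf markers (RBCS1A, CAB1, CA1 and RCA) lay between 34360 and 36430 FPKM in dcl1, against 33460 to 38260 FPKM in WT. Within them, CAB1 was called higher (log2 difference 0.36, limma adjusted p = 0.014). CA1 (-0.34, limma adjusted p = 0.045) and RCA (-0.41, limma adjusted p = 0.0092) were called lower, and RBCS1A was not called. The calls of CAB1 and CA1 were lost after quantile normalization. The 4 of 5 root markers present in the table summed to 8.88 to 10.9 FPKM in dcl1 and 11.3 to 11.99 FPKM in WT, nearly all of it SCR, which leaves also express, while IRT1, CASP1 and PLT2 were near 0. Sums over 4 flower markers were higher, from 12.2 to 16.5 FPKM in dcl1 against 9.11 to 9.57 FPKM in WT. AP3 and PI were called higher (log2 differences 0.71 and 0.53), SEP3 was not called, and AG was not tested. Sums over 3 seed markers did not pass 0.642 FPKM in dcl1 or 0.148 FPKM in WT. The part of that flower marker difference in the results below was not tested. Chloroplast genes took 0.774% of the summed FPKM of dcl1 replicate 1, while the other 5 libraries had between 0.0925% and 0.192%. In bulk samples, fewer cells of a type and less RNA per cell cannot be told apart.

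The MIR loci as a set stood far higher in dcl1. Their summed level was 896, 814 and 806 FPKM in dcl1 replicates 1, 2 and 3, against 66.7, 67.0 and 58.1 FPKM in WT replicates 1, 2 and 3. The mean sums were 839 ± 49.7 FPKM in dcl1 and 63.9 ± 5.07 FPKM in WT (SD, n = 3 each), a ratio of 13.1. As a share of all FPKM, this was between 0.131% and 0.144% in dcl1 libraries and between 0.00936% and 0.0107% in WT libraries. The 50 other MIR loci summed to 156.97, 126 and 149.7 FPKM in dcl1, against 91.1, 98.0 and 100.9 FPKM in WT, a ratio of 1.49. That ratio rests largely on the 2 highest of these 50. MIR414 averaged 27.6 FPKM in dcl1 and 45.5 FPKM in WT, and MIR850a 50.2 FPKM in dcl1 and 25.4 FPKM in WT. The ratio without these 2 was not computed. Without MIR157c, the highest locus, the sum over the remaining loci was still between 607 and 671 FPKM in dcl1, against 43.9 to 50.8 FPKM in WT. Between 41 and 43 loci exceeded 1 FPKM in a dcl1 library, and 9 or 10 did in a WT library.

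Counted locus by locus, every dcl1 library lay above every WT library at 51 of the 78 loci (65.4%), against 22.6% of all genes in the table. Every dcl1 library lay below every WT library at 2 loci, against 18.3% of all genes, and the groups overlapped at 25 loci. The same count gave 18 of the 50 other MIR loci. Among the 78, the mean was higher in dcl1 at 73 loci and lower at 5. Of all 24730 genes, 13298 had a higher and 11431 a lower mean in dcl1. Listed at 0 in every WT library were 23 loci, in the table only through dcl1 and able to differ in 1 direction only. At 8 of these all dcl1 libraries were above 0. Of the 55 loci with any WT value above 0, 43 had separated groups with dcl1 higher. Over all genes, 3.83% were listed at 0 in every WT library and 3.54% in every dcl1 library. The median difference in log2(FPKM + 1), dcl1 minus WT, was 0.97 over the 78 loci, 0.14 over the 50 other MIR loci and 0.01 over all genes. Adding 1 FPKM before taking logs shrinks the differences of low loci, and the median of the 78 was 2.42 with 0.1 FPKM added and 0.30 with 5 FPKM added.

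**Figure D1:**
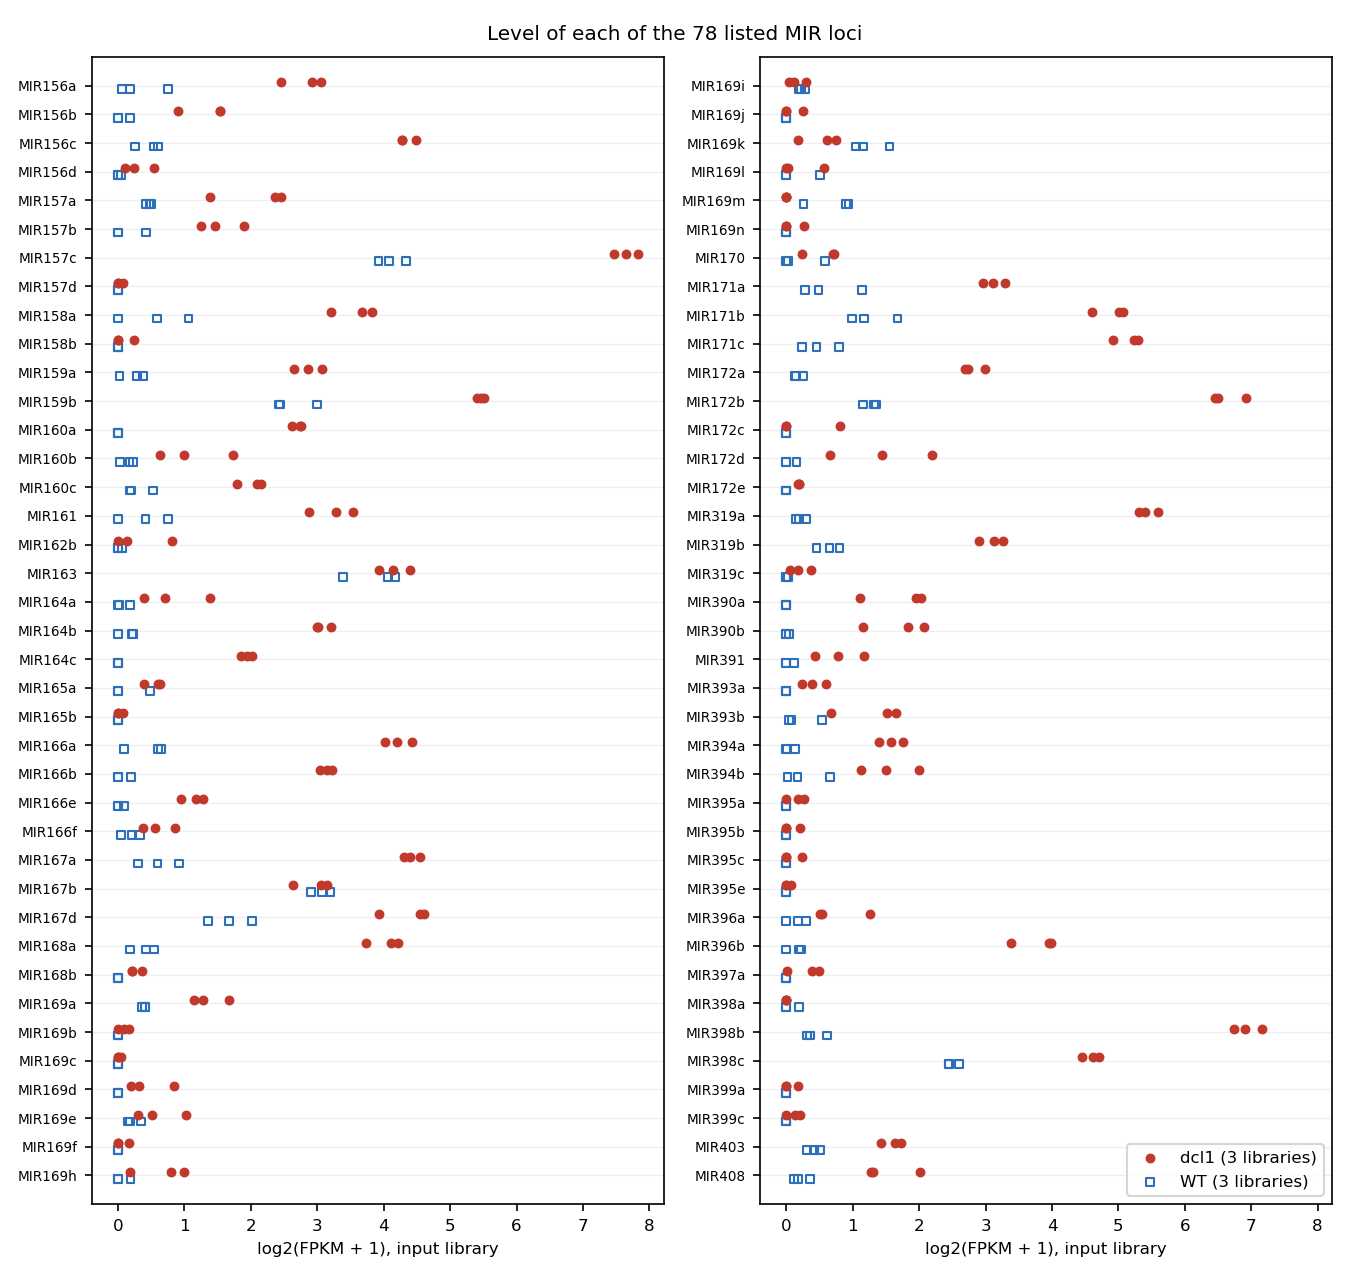
Level of each of the 78 MIR loci as log2(FPKM + 1) on the horizontal axis, with 1 row per locus; filled circles are the 3 dcl1 libraries and open squares the 3 WT libraries. At 51 loci all circles lie right of all squares, MIR157c, MIR398b and MIR172b reach furthest right, and at MIR163 and MIR167b circles and squares lie among each other.

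In the limma test, 36 loci were tested because they averaged 1 FPKM or more across the libraries. Of these, 34 rose, 0 fell and 2 (MIR163 and MIR167b) did not pass. Over all 17925 genes tested, 17.8% were called higher and 12.8% lower (3189 and 2291 genes). After quantile normalization 2481 genes were higher and 3716 lower, while the MIR loci kept counts of 34 and 0. At an unadjusted p under 0.05 no tested locus was lower either. The minimum favours loci that are high in dcl1: 28 of the 36 averaged under 1 FPKM in WT and were tested only through their dcl1 level, and all 28 rose. Averaging at least 1 FPKM in WT were 9 loci. The minimum is a mean over both genotypes, so it still depended on dcl1 for some of them. MIR171b and MIR172b, with WT means of 1.48 and 1.42 FPKM, would have reached it without a rise, but not with a dcl1 level near 0. MIR169k, with a WT mean of 1.41 FPKM, missed it with a dcl1 mean of 0.449 FPKM. Of the 9 loci, 6 rose (MIR157c, MIR159b, MIR167d, MIR171b, MIR172b and MIR398c). MIR163 and MIR167b did not pass, and MIR169k was below the minimum. With no minimum and all 24730 genes tested, 44 loci rose, against 12.5% of all genes, and 2 fell (MIR169k and MIR169m), against 9.05% of all genes. Among the 50 other MIR loci, 15 reached the minimum, of which 10 rose and 2 fell. With no minimum, 15 of those 50 rose and 2 fell. Log2 differences of the 34 loci that rose ran from 1.18 (MIR403) to 6.51 (MIR398b), with limma adjusted p from 8.9e-07 to 0.011.

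**Figure D2:**
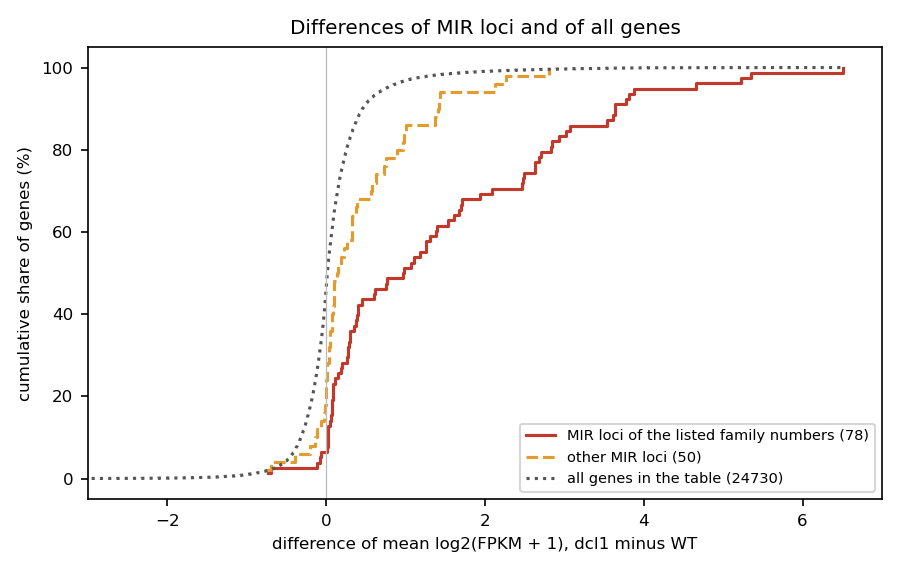
Cumulative share of genes, in percent, by the difference of mean log2(FPKM + 1), dcl1 minus WT; the solid line holds the 78 MIR loci, the dashed line the 50 other MIR loci and the dotted line all 24730 genes. The solid line lies furthest right, with its median at 0.97, against 0.14 for the dashed line and 0.01 for the dotted line.

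Families that time the juvenile and adult phases were among the highest. miR156 and miR157 repress the SPL transcription factors and keep plants juvenile, whereas miR172 represses AP2-like factors and acts later. MIR157c (AT3G18217, chromosome 3, 6244529 to 6244693, minus strand on TAIR10) had 226, 175 and 199 FPKM in dcl1 replicates 1, 2 and 3, against 15.9, 19.1 and 14.2 FPKM in WT replicates 1, 2 and 3 (log2 difference 3.53, SE 0.13, limma adjusted p = 1.09e-05). It was the highest locus in dcl1, its groups were far apart, and it had the highest mean in WT as well. Its 3 family members were much lower: MIR157a had 4.47, 1.60 and 4.17 FPKM in dcl1, against 0.336, 0.411 and 0.388 FPKM in WT, MIR157b averaged 1.95 ± 0.707 FPKM in dcl1 and 0.112 ± 0.194 FPKM in WT (SD, n = 3 each), and MIR157d was listed at 0 in all libraries but dcl1 replicate 1. MIR157a and MIR157b both rose. How reads shared by near-identical loci were counted is not stated, which touches this family and MIR165, MIR166, MIR169 and MIR395 most. MIR156c (AT4G31877, chromosome 4, 15413319 to 15415873, minus strand) had 21.3, 18.5 and 18.3 FPKM in dcl1, against 0.515, 0.195 and 0.447 FPKM in WT (log2 difference 3.88, limma adjusted p = 8.40e-06). With 6.54, 4.50 and 7.30 FPKM in dcl1 and 0.0451, 0.689 and 0.137 FPKM in WT, MIR156a rose as well (log2 difference 2.47, limma adjusted p = 4.36e-04). All dcl1 libraries were above all WT libraries at each of the 4 MIR156 loci, though MIR156b and MIR156d stayed below the minimum. MIR156d shares 86 bases with AT5G10946 on the same strand.

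MIR172b (AT5G04275, chromosome 5, 1188211 to 1188299, minus strand) carried 92.2% of its family's level in dcl1 and 89.3% in WT. Its values were 121, 89.5 and 86.4 FPKM in dcl1 replicates 1, 2 and 3, against 1.55, 1.22 and 1.502 FPKM in WT replicates 1, 2 and 3 (log2 difference 5.35, SE 0.13, limma adjusted p = 3.63e-06), with no overlap. In MIR172a, a longer annotated locus, they were 5.67, 5.47 and 6.97 FPKM in dcl1, against 0.0983, 0.190 and 0.111 FPKM in WT (log2 difference 2.63, limma adjusted p = 2.39e-05). MIR172d spread widely between dcl1 libraries, at 0.573, 1.73 and 3.56 FPKM in dcl1, against 0, 0 and 0.113 FPKM in WT, and MIR172c was above 0 in 1 dcl1 library only.

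Other families shape leaves, organ boundaries and meristems. Of their loci, MIR159b and MIR171b averaged at least 1 FPKM in WT. The others that were tested passed the minimum only through their dcl1 level. miR159 represses GAMYB-like MYB factors, and miR319, its close relative in sequence, represses TCP factors of leaf growth. MIR159b (AT1G18075, chromosome 1, 6220648 to 6220833, plus strand) had 44.4, 41.3 and 43.2 FPKM in dcl1, against 6.997, 4.44 and 4.35 FPKM in WT (log2 difference 2.84, limma adjusted p = 6.35e-05). The other locus, MIR159a, had 6.26, 7.40 and 5.28 FPKM in dcl1, against 0.0148, 0.302 and 0.218 FPKM in WT (log2 difference 2.63, limma adjusted p = 7.42e-05). The WT libraries were thus far higher at MIR159b than at MIR159a, and MIR159b held 87.2% of the family's level in dcl1 and 96.7% in WT. MIR319a (AT4G23713, chromosome 4, 12352956 to 12353131, plus strand) had 38.7, 47.5 and 41.2 FPKM in dcl1 replicates 1, 2 and 3, against 0.106, 0.228 and 0.140 FPKM in WT replicates 1, 2 and 3 (log2 difference 5.23, SE 0.10, limma adjusted p = 8.93e-07). MIR319b, which in WT was the highest of the family, had 7.73, 8.57 and 6.49 FPKM in dcl1, against 0.372, 0.571 and 0.742 FPKM in WT (log2 difference 2.46, limma adjusted p = 6.35e-05). So the order of MIR319a and MIR319b differed between genotypes: MIR319a held 84.6% of the family sum in dcl1, and MIR319b 77.5% in WT. The WT order rests on few reads, and the switch was not tested. By the coverage reading, WT replicates 1, 2 and 3 had 0.631, 1.32 and 1.02 at MIR319a and 2.22, 3.31 and 5.40 at MIR319b. MIR319c did not pass 0.291 FPKM in dcl1 or 0.0156 FPKM in WT.

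miR164 represses the CUC and related NAC factors of organ boundaries. MIR164b rose to 7.10, 6.99 and 8.27 FPKM in dcl1, against 0.168, 0.154 and 0 FPKM in WT (log2 difference 2.93, limma adjusted p = 1.49e-05). MIR164c, listed at 0 in all WT libraries, had 3.06, 2.62 and 2.83 FPKM in dcl1, which on the coverage reading is a mean of 17.1, 17.1 and 18.1 reads. miR165 and miR166 repress HD-ZIP III factors that set leaf polarity. MIR166a had 17.4, 15.3 and 20.4 FPKM in dcl1, against 0.563, 0.517 and 0.0667 FPKM in WT (log2 difference 3.77, limma adjusted p = 2.79e-05). For MIR166b the values were 7.20, 8.28 and 7.83 FPKM in dcl1, against 0.144, 0 and 0 FPKM in WT (log2 difference 3.07, limma adjusted p = 1.04e-05). Both lay apart from WT, as did MIR166e and MIR166f at lower level. The 2 MIR165 loci gave no such picture: MIR165a had 0.545, 0.306 and 0.512 FPKM in dcl1, against 0, 0 and 0.394 FPKM in WT, with overlapping groups, and MIR165b was above 0 in 1 dcl1 library.

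miR396 represses growth-regulating factors (GRF), and miR170 and miR171 repress GRAS-family HAM factors of the meristem. MIR396b had 14.8, 9.46 and 14.5 FPKM in dcl1, against 0, 0.170 and 0.141 FPKM in WT (log2 difference 3.63, limma adjusted p = 3.15e-05), while MIR396a averaged 0.758 ± 0.557 FPKM in dcl1 and 0.122 ± 0.117 FPKM in WT (SD, n = 3 each) and was below the minimum. All 3 MIR171 loci rose. MIR171c had 36.8, 29.2 and 38.1 FPKM in dcl1, against 0.178, 0.729 and 0.371 FPKM in WT (log2 difference 4.65, limma adjusted p = 1.04e-05). MIR171b had 32.6, 31.2 and 23.3 FPKM in dcl1, against 2.19, 0.991 and 1.26 FPKM in WT (log2 difference 3.62, limma adjusted p = 6.35e-05). At MIR171a, the lowest of the family, they were 7.68, 8.81 and 6.80 FPKM in dcl1, against 0.217, 1.20 and 0.399 FPKM in WT (log2 difference 2.49, limma adjusted p = 3.77e-04). The lowest dcl1 library of each was several times its highest WT library. MIR170, the shortest locus of all, had 0.179, 0.641 and 0.627 FPKM in dcl1, against 0.504, 0 and 0.0193 FPKM in WT, with overlapping groups.

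Several families act in auxin response. miR160 and miR167 repress auxin response factors, miR390 triggers the tasiRNAs that repress other ARF genes, miR393 represses the auxin receptors TIR1 and AFB, and miR394 represses the F-box gene LCR. MIR160a was listed at 0 in every WT library and had 5.13, 5.72 and 5.69 FPKM in dcl1 replicates 1, 2 and 3. MIR160c had 3.28, 3.46 and 2.45 FPKM in dcl1, against 0.439, 0.149 and 0.132 FPKM in WT (log2 difference 1.71, limma adjusted p = 4.08e-04). The third locus, MIR160b, lay apart at lower level, between 0.554 and 2.31 FPKM in dcl1 and between 0.0204 and 0.170 FPKM in WT.

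Of the 3 MIR167 loci, MIR167a and MIR167d rose and MIR167b did not pass. MIR167a (AT3G22886, chromosome 3, 8108021 to 8108622, plus strand) had 22.5, 20.1 and 18.7 FPKM in dcl1 replicates 1, 2 and 3, against 0.235, 0.512 and 0.883 FPKM in WT replicates 1, 2 and 3 (log2 difference 3.81, limma adjusted p = 1.98e-05). MIR167d had 22.3, 14.2 and 23.4 FPKM in dcl1, against 2.19, 1.55 and 3.06 FPKM in WT (log2 difference 2.68, limma adjusted p = 3.32e-04). MIR167b (AT3G63375, chromosome 3, 23406177 to 23406267, plus strand) had 7.30, 5.20 and 7.81 FPKM in dcl1, against 8.19, 7.43 and 6.49 FPKM in WT. Its groups overlapped, and the log2 difference of -0.12 had a 95% confidence interval of -0.46 to 0.22 (limma adjusted p = 0.568), an interval that lies below the differences of MIR167a (3.81) and MIR167d (2.68). The difference between these loci was not itself tested. Without dcl1 replicate 2 the MIR167b difference was 0.04, of the other sign and with a limma adjusted p of 0.838. In WT, MIR167b held 72.4% of the family's level, whereas in dcl1 MIR167a was the highest with 43.3%.

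MIR390a was listed at 0 in every WT library and had 1.16, 3.08 and 2.87 FPKM in dcl1. MIR390b had 3.21, 2.58 and 1.23 FPKM in dcl1, against 0, 0 and 0.0252 FPKM in WT, which rests on a mean coverage of at most 0.183 reads in WT. MIR391 and MIR393b, both below the minimum, had all dcl1 libraries above all WT libraries. MIR391, a relative of MIR390, had 1.25, 0.717 and 0.354 FPKM in dcl1, against 0, 0 and 0.0867 FPKM in WT. Values at MIR393b were 1.86, 0.600 and 2.14 FPKM in dcl1, against 0.0252, 0.0571 and 0.452 FPKM in WT. Its partner MIR393a was lower, and listed at 0 in WT. Both MIR394 loci rose. MIR394a averaged 2.00 ± 0.362 FPKM in dcl1 and 0.0357 ± 0.0557 FPKM in WT, and MIR394b averaged 2.01 ± 0.921 FPKM in dcl1 and 0.241 ± 0.303 FPKM in WT (SD, n = 3 each).

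Some families target the small RNA machinery itself: miR162 targets DCL1, miR168 targets AGO1 and miR403 targets AGO2. MIR168a (AT4G19395, chromosome 4, 10578652 to 10578755, plus strand) had 12.2, 16.2 and 17.7 FPKM in dcl1, against 0.336, 0.457 and 0.137 FPKM in WT (log2 difference 3.64, limma adjusted p = 2.20e-05). Its partner MIR168b did not pass 0.288 FPKM and was listed at 0 in WT. MIR403 had 2.10, 1.69 and 2.30 FPKM in dcl1, against 0.336, 0.243 and 0.425 FPKM in WT (log2 difference 1.18, limma adjusted p = 8.65e-04). Its groups were separated. This was the smallest log2(FPKM + 1) difference among the loci that rose, but its ratio of means, 6.06, was above that of MIR398c, 4.97. MIR162b was barely covered, at 0, 0.0957 and 0.766 FPKM in dcl1, against 0, 0 and 0.0406 FPKM in WT, and its groups overlapped; MIR162a was not matched by the rule and is not analysed here.

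Among families tied to nutrients and stress, the MIR398 loci stood out. miR398 represses copper/zinc superoxide dismutases, and like miR397 and miR408 it is known to accumulate under copper shortage. MIR398b (AT5G14545, chromosome 5, 4691022 to 4691137, plus strand) had 119, 142 and 106 FPKM in dcl1 replicates 1, 2 and 3, against 0.534, 0.244 and 0.277 FPKM in WT replicates 1, 2 and 3 (log2 difference 6.51, SE 0.13, limma adjusted p = 8.93e-07). It lies within AT5G14550 of the opposite strand, with which it shares all 116 bases. In mean coverage, by the reading of the steps, that was 661, 926 and 679 in dcl1, against 3.18, 1.42 and 2.01 in WT. MIR398c (AT5G14565, chromosome 5, 4694626 to 4697013, plus strand) had 23.5, 25.0 and 20.8 FPKM in dcl1, against 4.44, 5.08 and 4.44 FPKM in WT (log2 difference 2.09, limma adjusted p = 2.47e-05), so it was well above MIR398b in WT and well below it in dcl1. MIR398a was listed at 0 in every library but WT replicate 2. The family sum averaged 145 ± 20.0 FPKM in dcl1 and 5.05 ± 0.380 FPKM in WT (SD, n = 3 each). MIR408 had 1.46, 3.04 and 1.41 FPKM in dcl1, against 0.0846, 0.126 and 0.281 FPKM in WT (log2 difference 1.31, limma adjusted p = 0.0044). All 1247 bases of the annotated MIR408 locus overlap AT2G47020 on the other strand, and the sources do not say if strand was used in counting.

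Of the remaining nutrient families, none had a locus over the minimum. miR395 is known to be induced by sulfate shortage and miR399 by phosphate shortage. The 4 MIR395 loci, the 2 MIR399 loci and MIR397a were all listed at 0 in every WT library. In dcl1, MIR395a had 0.204, 0 and 0.131 FPKM, MIR399c 0, 0.101 and 0.157 FPKM and MIR397a 0.406, 0.01001 and 0.313 FPKM. Each of these values is an inferred mean coverage of under 3 reads. The dcl1 libraries were all above WT at MIR397a and in the MIR399 sum, and with no minimum none of these 3 loci passed (limma adjusted p = 0.170 for MIR395a, 0.185 for MIR399c and 0.125 for MIR397a).

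The 13 MIR169 loci, whose microRNA represses NF-YA factors, formed the largest family, and none passed the minimum. Their sum was 4.73, 4.24 and 3.50 FPKM in dcl1, against 3.12, 2.09 and 3.52 FPKM in WT, with overlapping groups. MIR169a, the highest in dcl1, had 1.21, 2.20 and 1.42 FPKM in dcl1, against 0.328, 0.326 and 0.281 FPKM in WT, with separated groups. For MIR169k, the highest in WT, the values were 0.680, 0.530 and 0.135 FPKM in dcl1, against 1.06, 1.22 and 1.94 FPKM in WT, and its groups did not overlap. At MIR169m, they were 0, 0 and 0 FPKM in dcl1, against 0.870, 0.197 and 0.915 FPKM in WT. These were the 2 loci at which every dcl1 library lay below every WT library, and the 2 that fell when no minimum was set (limma adjusted p = 0.040 for MIR169k and 0.038 for MIR169m). The other MIR169 loci did not pass 1.02 FPKM in any library.

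Outside these groups, MIR158a had 13.2, 11.7 and 8.24 FPKM in dcl1, against 0.504, 0 and 1.09 FPKM in WT (log2 difference 3.02, limma adjusted p = 4.65e-04). MIR161, whose microRNAs target pentatricopeptide repeat genes, had 10.7, 8.73 and 6.36 FPKM in dcl1, against 0, 0.333 and 0.687 FPKM in WT (log2 difference 2.85, limma adjusted p = 2.82e-04). Both were low in WT, and all dcl1 libraries were above them. MIR163 (AT1G66725, chromosome 1, 24883931 to 24884559, plus strand), whose microRNA targets methyltransferase genes, had 16.7, 20.0 and 14.3 FPKM in dcl1 replicates 1, 2 and 3, against 15.8, 16.9 and 9.49 FPKM in WT replicates 1, 2 and 3. Only MIR157c had a higher mean than MIR163 in WT. The groups overlapped, and the log2 difference of 0.28 had a 95% confidence interval of -0.21 to 0.78 (limma adjusted p = 0.345).

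By family, the summed level of every dcl1 library was above that of every WT library in 23 of 29 family numbers, and 19 had at least 1 locus that rose. The 6 others were MIR162, MIR163, MIR165, MIR169, MIR170 and MIR395. Among the 23, MIR397 and MIR399 had a sum of 0 in every WT library. Their loci are listed only through dcl1, so these sums could differ in 1 direction only. The highest sum in dcl1 was that of MIR157, at 205 ± 26.7 FPKM in dcl1 and 16.9 ± 2.51 FPKM in WT. Next came MIR398, then MIR172 at 107 ± 17.1 FPKM in dcl1 and 1.60 ± 0.164 FPKM in WT, and MIR171 at 71.5 ± 4.84 FPKM in dcl1 and 2.51 ± 0.452 FPKM in WT (SD, n = 3 each). MIR319 averaged 50.2 ± 5.15 FPKM in dcl1 and 0.725 ± 0.216 FPKM in WT, and MIR159 49.3 ± 1.21 FPKM in dcl1 and 5.44 ± 1.36 FPKM in WT. In WT the order was another one: MIR157 was followed by MIR163 and then by MIR167, which averaged 47.2 ± 6.71 FPKM in dcl1 and 10.2 ± 0.596 FPKM in WT. The 3 highest loci of dcl1 (MIR157c, MIR398b and MIR172b) together held 50.2% of the summed level of the 78.

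**Figure D3:**
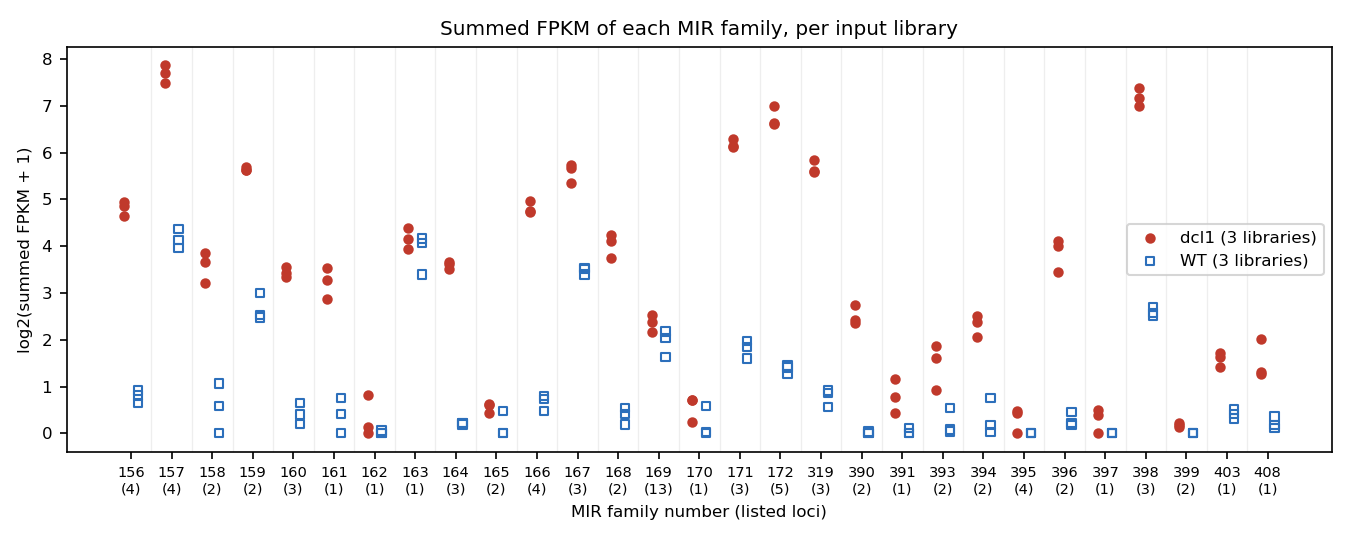
Summed level of each family number as log2(summed FPKM + 1), with the number of listed loci in parentheses under each family number on the horizontal axis; filled circles are the 3 dcl1 libraries, left of the open squares of the 3 WT libraries. The circles lie above all squares in 23 of 29 families, and MIR163 and MIR169 are among the 6 in which they do not. In MIR397 and MIR399, which are among the 23, all squares lie at 0.

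By length, the groups were separated with dcl1 higher at 44 of the 62 loci under 200 bases, at 1 of the 8 with 200 or more but under 400 and at 6 of the 8 of at least 400 bases. Over all genes of any length the share was 22.6%, and shares of all genes by length class were not computed. These counts include the 23 loci listed at 0 in every WT library. The middle class holds mostly MIR169 loci. By position, 22 loci lay on chromosome 1, 12 on chromosome 2, 17 on chromosome 3, 7 on chromosome 4 and 20 on chromosome 5. At 27 of the loci, another gene that is no MIR locus overlapped or lay within 1000 bases, 35 genes in all. Of these, 27 were tested, 8 rose and 4 fell, against 17.8% higher and 12.8% lower of all genes tested, with a median log2 difference of 0.12 against 0.03. AT5G14550, which covers MIR398b on the opposite strand and lies 571 bases from MIR398c, averaged 8.995 ± 0.629 FPKM in dcl1 and 1.845 ± 0.258 FPKM in WT (log2 difference 1.82, limma adjusted p = 6.6e-05). AT4G30975, 18 bases from MIR156b on the same strand, averaged 6.54 ± 0.225 FPKM in dcl1 and 0.804 ± 0.0574 FPKM in WT (log2 difference 2.06, limma adjusted p = 2.0e-05). AT3G61898, 229 bases from MIR166b on the same strand, averaged 16.8 ± 1.80 FPKM in dcl1 and 2.41 ± 2.09 FPKM in WT (log2 difference 2.68, limma adjusted p = 0.011, and 0.055 with 0.1 FPKM added in place of 1). Not every neighbour was higher: NRT2.7 shares 1930 bases with MIR398c on the opposite strand and averaged 4.28 ± 0.140 FPKM in dcl1 and 5.51 ± 0.644 FPKM in WT (limma adjusted p = 0.051). AT2G47020, which covers MIR408, averaged 4.375 ± 0.476 FPKM in dcl1 and 3.92 ± 0.228 FPKM in WT (limma adjusted p = 0.358). These 5 neighbours were chosen after their values were seen, and whether reads of a locus and its neighbour belong to 1 transcript was not tested.

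Of 20 genes on the list of microRNA biogenesis and action, all tested, 5 rose and 1, DCL1, fell, where 17.8% of all genes tested were higher and 12.8% lower. The median log2 difference was 0.06, against 0.03 over all genes tested. HYL1, the double-stranded RNA binding partner of DCL1, averaged 11.1 ± 0.823 FPKM in dcl1 and 7.68 ± 0.343 FPKM in WT (SD, n = 3 each; log2 difference 0.48, limma adjusted p = 0.0052). DDL, an RNA-binding partner of DCL1, rose by 0.37 and CDC5, a MYB-related splicing factor, by 0.34 on the log2 scale. CDC5 lost its call without WT replicate 1 and without WT replicate 2 (highest limma adjusted p = 0.057), and the calls of TGH and CBP20 were lost more often. SE averaged 15.0 ± 0.220 FPKM in dcl1 and 16.0 ± 0.447 FPKM in WT (log2 difference -0.09, limma adjusted p = 0.330), and AGO1 30.5 ± 0.569 FPKM in dcl1 and 27.9 ± 2.20 FPKM in WT (log2 difference 0.13, limma adjusted p = 0.238).

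Of 81 known target genes of these families, 73 were tested, 40 rose and 3 fell, against 17.8% higher and 12.8% lower of all genes tested. Their median log2 difference was 0.38, against 0.03 over all genes tested. The counts differed between families. For miR156 and miR157, 10 of 11 tested SPL genes rose, and SPL4 averaged 20.6 ± 2.30 FPKM in dcl1 and 6.585 ± 1.31 FPKM in WT (SD, n = 3 each; log2 difference 1.52, limma adjusted p = 4.90e-04). The call of SPL11 held in 1 of the 6 fits that left out a library. For miR169, 6 of 7 NF-YA genes rose, though the call of NFYA9 held in 1 of those 6 fits. NFYA2 had the largest rise of all listed targets, with 28.3 ± 0.889 FPKM in dcl1 and 4.51 ± 0.796 FPKM in WT (log2 difference 2.42, limma adjusted p = 2.55e-05). NFYA3 rose by 1.86 and NFYA5 by 1.54 on the log2 scale. The 13 MIR169 loci themselves were all below the minimum. For miR159, both tested MYB genes rose. For miR164, 4 of 4 tested NAC genes rose, but NAC1 kept its call in 1 of the 6 fits and ORE1 in 3, so 2 rose without dcl1 replicate 2, dcl1 replicate 3 or WT replicate 1.

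Other families showed few or no risen targets beside risen loci. For miR319, 0 of 5 TCP genes passed the test, with adjusted p from 0.101 to 0.753 in limma, and for miR170 and miR171 0 of 3 HAM genes did, at 0.172 to 0.387. At an unadjusted p under 0.05, 1 of the TCP genes was higher and 0 of the HAM genes differed. TCP10 was called higher without dcl1 replicate 3 (limma adjusted p = 0.042), and HAM1 lower after quantile normalization (limma adjusted p = 0.048). For miR398, CSD1 averaged 403.4 ± 6.93 FPKM in dcl1 and 359 ± 7.25 FPKM in WT (log2 difference 0.17, limma adjusted p = 0.041), a call that held in 1 of the 6 fits that left out a library. CSD2, the chloroplast form, averaged 752 ± 7.94 FPKM in dcl1 and 770.3 ± 43.9 FPKM in WT (log2 difference -0.03, limma adjusted p = 0.692). For miR165 and miR166, 1 of 5 HD-ZIP III genes rose. For miR172, TOE2 rose by 1.22, while SNZ averaged 2.51 ± 0.228 FPKM in dcl1 and 23.0 ± 2.09 FPKM in WT (log2 difference -2.78, limma adjusted p = 1.04e-05) and SMZ 1.19 ± 0.222 FPKM in dcl1 and 4.35 ± 0.592 FPKM in WT (log2 difference -1.29, limma adjusted p = 5.65e-04). The third target that fell, GRF7 of miR396, lost its call whichever library was left out. For miR397, none of the 3 listed laccases reached the minimum. SPL4, SPL11, NFYA9, NAC1, ORE1, TCP10, HAM1, TOE2, CSD1 and CSD2 were named after their values were seen.

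**Figure D4:**
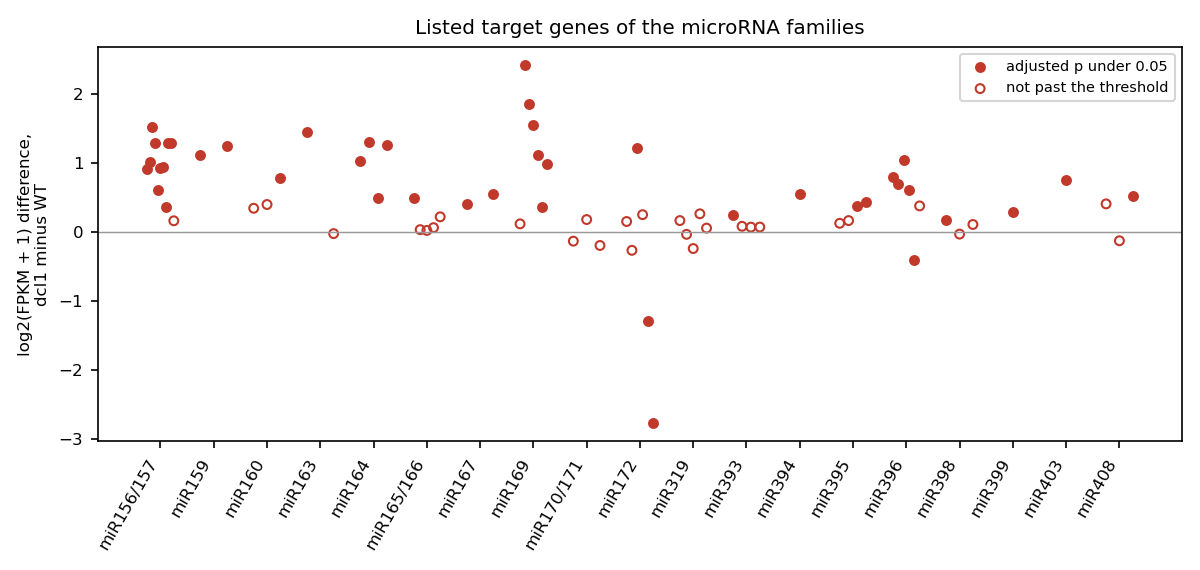
Difference of mean log2(FPKM + 1), dcl1 minus WT, of the 73 tested target genes, 1 point per gene, by the microRNA family on the horizontal axis; filled points passed an adjusted p of 0.05 and open points did not. Filled points above 0 number 40 and below 0 number 3, miR169 targets reach the highest value (2.42) and the miR172 target SNZ the lowest (-2.78).

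In the authors' deposited table of their own expression comparison, 21 of the 78 loci are marked significant and up and 0 significant and down, against 4.74% and 2.01% of all genes. All 21 were among the 34 that rose here. A locus left unmarked there need not be unchanged. MIR161 and MIR171a, which rose here, are unmarked with log2 changes of 4.66 and 3.68 in that table. Whether the authors' comparison tested every locus is not stated. In the authors' deposited table of 3117 differential m6A peaks (1879 up and 1238 down in dcl1), 4 peaks lay over 2 of the loci. A pair of overlapping peaks over MIR398c (chromosome 5, 4696475 to 4697013 and 4696478 to 4696958, TAIR10) has log2 changes of 0.387 and 0.388 in that deposited table, which assigns the second to NRT2.7. A pair over MIR408 (chromosome 2, 19319779 to 19320047 and 19319684 to 19320043) has log2 changes of -0.704 and -0.525 in the authors' deposited table. The strand of a peak is not used here, and both pairs lie where an opposite gene overlaps the MIR locus. How these log2 changes were scaled is not stated. A further peak is assigned to MIR391 there (log2 0.545) but lies 2103 bases from that locus. That table gives differential peaks alone, so peaks that did not differ at the other 76 loci cannot be seen in it.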

How the data were processed

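Input RNA-seq libraries of dcl1 and WT (3 each) were used; the single m6A immunoprecipitate libraries were not. The submitters' processing notes list TAIR10 and the tools HISAT2, fastp, edgeR, StringTie, ChIPseeker and HOMER; their versions and roles, the strand setting and the treatment of shared reads are not given in the sources used here. The authors deposited FPKM per gene and library, per the file headers, so read depth is not stated. Their comparison tables hold, per the file headers, log2 changes deposited with p-values and q-values, and for each peak the log10 of the FDR.

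Differences in log2(FPKM + 1) were tested two-sided in R 4.3.3 by limma 3.58.1 (moderated with a variance trend), for genes averaging 1 FPKM or more, with Benjamini-Hochberg adjustment over all genes tested and a threshold of 0.05. The pseudocount makes the log2 differences of low genes smaller than the ratios of their means. The script was tested on simulated data. Family sums, group separation and medians were computed with Python 3.11.15 and pandas 2.3.3, and plots drawn with matplotlib 3.10.9. The p-values measure the spread between these libraries, which the design text calls biological replicates. All 78 loci matched a locus tag and symbol in a RefSeq table of TAIR10.1, used for names alone; coordinates are those of the authors' tables.

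The named loci were those with at least 5 FPKM in either genotype, the highest locus of each other family and any called lower, and for the gene lists DCL1 and up to 3 rises and 3 falls; further loci and genes were named after their values were seen. Members, lists and tests were chosen with earlier results of these data known. Alternatives covered the pseudocount, the minimum, the scaling, each library left out, the replicate block and overlapping genes.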

Additional observations from a re-analysis of the deposited data

How the results depend on the processing

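Of 432 recomputed log2 differences of the 36 tested loci, 431 kept their direction and their side of the threshold, and the exception was MIR167b (-0.12), which lay between -0.22 and 0.0365 with 1 library left out, highest without dcl1 replicate 2. The 34 loci that rose became 15 with a minimum of 5 FPKM, which 19 of the 36 loci did not reach, and 28 to 36 with 1 library left out, where the tested set also changes. None fell, except 2 with no minimum, and 0 fell whichever library was left out. The median log2 difference of the 78 loci (0.97) was 2.42 with a pseudocount of 0.1 FPKM, 0.30 with 5 FPKM, 0.87 without the 4 loci that overlap another gene, 2.68 over the 9 loci with a WT mean of at least 1 FPKM (chosen after seeing the data), and 0.94 to 0.99 with 1 library left out. Separated groups numbered 51 to 55 loci and 23 to 25 families with 1 library left out, and 47 loci and 21 families without overlapping loci.

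Counts over all genes depended more on the libraries. Higher genes (3189) numbered 1835 without WT replicate 2, 1979 without WT replicate 1 and up to 3605 without WT replicate 3; lower genes (2291) numbered 1247 without WT replicate 1 to 2058 without WT replicate 3, and 3716 after quantile normalization. Of the biogenesis genes, 5 rose, and 2 to 5 did with 1 library left out (3 without dcl1 replicate 3, 2 without WT replicate 1 or 2). The 1 that fell became 0 with a minimum of 5 FPKM, which DCL1 does not reach, 3 after quantile normalization and 2 after median-ratio scaling, and was 1 whichever library was left out. Targets that rose (40) numbered 32 to 41 with 1 library left out, and those that fell (3) 2 to 3, with 1 at a minimum of 5 FPKM and 5 after quantile normalization. Both lists together gave 35 to 46 rises and 3 to 4 falls with 1 library left out, 1 fall at a minimum of 5 FPKM and 8 after quantile normalization. Where no construction is named, the cause was not tested.

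Same-numbered libraries of the genotypes correlated in their deviations at 0.085, 0.061 and 0.150, and differently numbered ones at -0.172 to 0.116. The same number gave the highest correlation for dcl1 replicates 2 and 3, while dcl1 replicate 1 correlated best with WT replicate 2 (0.116). These weak correlations do not settle whether the numbers pair the libraries, and the main fit did not pair them. With the replicate number as a block, 34 loci rose and 0 fell, and over all genes 3054 rose and 2084 fell. MIR163 did not pass with the block either, at a limma adjusted p of 0.0994 in place of 0.345.

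Depth limits the low loci: at 55 of 78 loci all WT values were under an inferred mean coverage of 3 reads, so ratios to WT are imprecise there.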
